A study of Drosophila melanogaster with 16 samples.

Results

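Gene expression was compared between single stage 16 embryos of Drosophila melanogaster that make only a catalytically dead form of Sce and single wild-type embryos of that stage. The SceI48A group held 4 embryos and the wild-type group held 4, out of 16 embryos in the series. The other embryos belong to a comparison of Asx0 mutants with wild-type embryos of their own and are used here only for values set side by side. SceI48A embryos were GFP-negative progeny of parents in which a wild-type Sce copy had been removed by Flp in the germ line, driven by nos-Gal4, so that the Sce protein from mother and embryo alike came from an inserted mutant copy in a background of the null allele Sce0. The stock also carried w, cu and sr and other inserted elements, and the wild type was Oregon-R. No embryos of the mutant stock with active Sce were measured, so the mutation and these differences between stocks cannot be told apart for any gene named here. Both groups were kept by the authors out of larger sets by their profile in a principal component analysis and by morphology. Poly(A) RNA of each embryo made 1 library, and each value is a log2 normalized count as deposited, drawn towards the gene's mean most strongly where reads were few. Of 13754 genes in the table, 10369 had a mean normalized count of at least 10 and were tested with limma, and 3385 lay below that limit.

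Polycomb repressive complex 1 (PRC1) keeps developmental regulators such as the HOX genes silent in cells where they should not act, and it does so in part by compacting chromatin. Its subunit Sce, the fly relative of mammalian RING1, attaches ubiquitin to histone H2A, and PR-DUB, made of the deubiquitinase Calypso (gene caly) and its partner Asx, takes it off again. In SceI48A embryos PRC1 still assembles but has no ligase activity. Trithorax group proteins act against Polycomb repression. At stage 16 the organs are in place, the epidermis and tracheae are laying down cuticle, and the midgut and fat body express genes that the larva will use.

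Sce RNA itself lay at 9.08, 9.19, 9.12 and 9.10 in SceI48A embryos, against 8.93, 9.01, 9.01 and 9.11 in wild type. The groups overlapped and the gene did not pass the test (log2 fold change 0.11, standard error 0.07, adjusted p = 0.381 from limma with Benjamini-Hochberg adjustment). Transcripts of the inserted copy and of the Sce0 allele are counted together, and the values say nothing about the amino acid change. The first principal component held 46.6% of the variance and set the 4 SceI48A embryos (scores 6.26 to 17.8) apart from the 4 wild-type embryos (-18.3 to -7.73). The embryos numbered 1 of both groups lay farthest out. The difference msl-2 minus Sxl, genes of dosage compensation and female sex determination, was low in 1 embryo of each group (-3.74 in SceI48A embryo 2 and -3.93 in wild-type embryo 3, against -2.32 to -1.73 in the other 6). Of 27 tissue markers, 26 passed the limit, with neuronal, muscle, cuticle, fat body, tracheal and salivary gland markers all present. The macrophage marker Hml, with a mean count of 7.90, was not tested. The tables give no library totals, so the depth of each embryo is unknown.

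Most genes stayed close to their wild-type level. The middle 50% of log2 fold changes ran from -0.10 to 0.10 and the lowest and highest 5% lay beyond -0.32 and 0.29. At an adjusted p under 0.05, 321 genes were higher in SceI48A embryos (3.10% of those tested) and 455 were lower (4.39%), together 776 (7.48%). Beyond 2-fold as well, 11 were higher (0.106%) and 31 lower (0.299%). The median change of the called genes was 0.38 for those higher and -0.43 for those lower, so the typical called gene differed by less than 1.5-fold, and 46 higher and 117 lower genes exceeded that size. The values of the 4 SceI48A and the 4 wild-type embryos did not overlap for 1866 genes (18.0%), among them 754 of the 776 called genes. The split between higher and lower depended on centring: when each embryo was shifted to the same median, a step that moved the median of all genes by 0.03, the numbers were 425 higher and 343 lower. Of the 776 called genes, 326 (42.0%) kept the call whichever embryo was left out, 211 of them lower, and all 776 kept their direction. For the 754 without overlap, leaving out 1 embryo could not change the direction. The total was 390 without wild-type embryo 2, 459 without wild-type embryo 3, 479 without wild-type embryo 4 and 479 without SceI48A embryo 2.

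The direction of change differed with level. Of 2000 genes with a mean count from 10 to 100, 23 were higher and 69 lower. From 100 to 1000 the numbers were 112 and 259 of 4557. From 1000 to 10000 the order turned, with 170 higher and 118 lower of 3423, and above 10000 they were 16 and 9 of 389. Values are shrunken most strongly for low genes, and none of the genes under 100 exceeded 2-fold. The plot of change against level shows a dense band around no change with a small set of genes standing out in each direction.

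**Figure D1:**
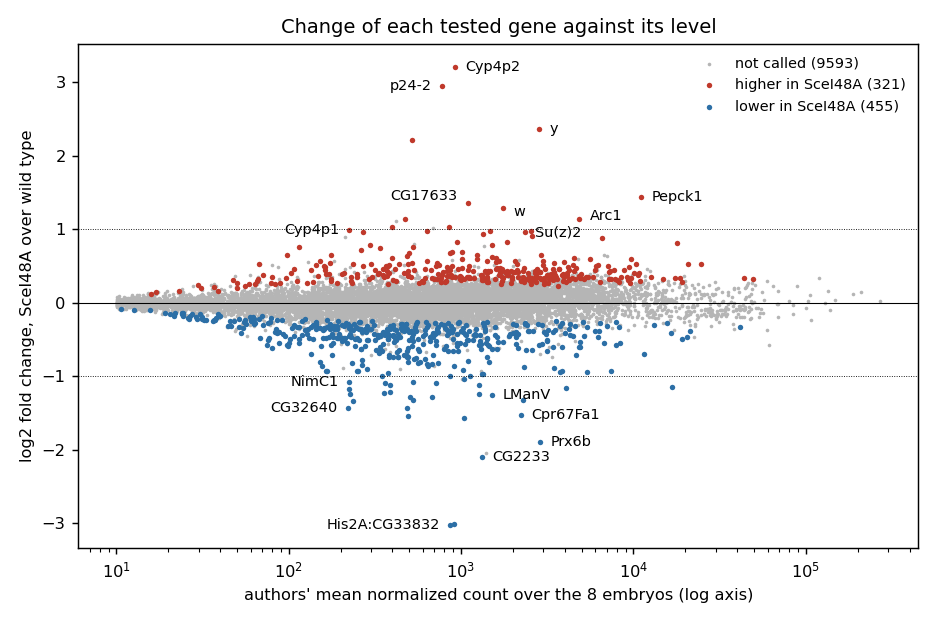
Each point is one of the 10369 tested genes, placed by the authors' mean normalized count over the 8 embryos (log axis) and the log2 fold change of SceI48A over wild type; 321 genes called higher are red, 455 called lower are blue, and dotted lines mark 2-fold. Cyp4p2 (3.21) lies at the top, and the histone gene His2A:CG33832 (-3.03) at the bottom.

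Change also followed the length of the transcript. Among the 3799 genes with a mean count of at least 1000, the median log2 fold change was -0.17 for genes whose longest annotated transcript is under 1 kb, -0.08 from 1 to 2 kb, 0.04 from 2 to 4 kb, 0.13 from 4 to 8 kb and 0.21 from 8 kb on. Across these genes, which share the same 8 libraries, the Spearman correlation of length and change was 0.547. Of the shortest class 1.41% were called higher and 8.83% lower, and of the longest class 11.4% higher and 0.669% lower. The embryos did not share the slope equally. Wild-type embryo 1 ran from 0.28 above the gene's mean in the shortest class to -0.32 in the longest, while wild-type embryos 2, 3 and 4 stayed between -0.05 and 0.03. SceI48A embryos 1, 2 and 4 ran the opposite way (-0.11, -0.17 and -0.11 in the shortest class, 0.10, 0.17 and 0.10 in the longest), and SceI48A embryo 3 was nearly level (0.03 and 0.01). The correlation was 0.395 without wild-type embryo 1 and 0.372 without both embryos numbered 1. In the Asx0 comparison, which has other embryos and its own normalization, it was 0.210 over the same genes.

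**Figure D2:**
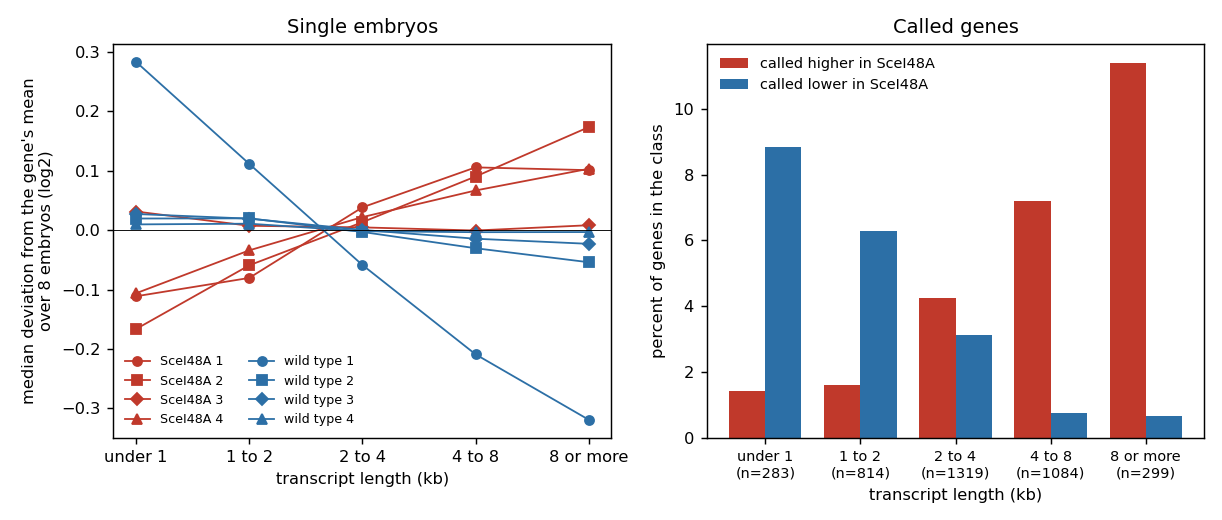
Left, the median deviation of each embryo from the gene's mean over 8 embryos (log2), by length of the longest transcript, for genes with a mean count of at least 1000; right, the percent of genes in each length class called higher (red) or lower (blue) in SceI48A embryos. Wild-type embryo 1 slopes down to -0.32 and SceI48A embryos 1, 2 and 4 slope up, while the other 4 embryos lie near 0.

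Since a gradient of this kind touches every group of short or long genes, each count was also taken after the smoothed dependence on length had been removed within each embryo, a step added after seeing the data. It left 287 genes higher (2.77%) and 441 lower (4.25%), of which 226 and 356 were also called without it. The families of short genes below show how much it moves. The 88 cytoplasmic ribosomal protein genes had a median of -0.14, with 84 below 0, and a median of 0.01 after the correction. The 72 mitochondrial ribosomal protein genes had -0.18, and -0.08 after the correction, and the 71 genes of oxidative phosphorylation had -0.18, and -0.06 after it. Only 1, 3 and 4 of them were called lower, and 1, 1 and 0 after the correction. The call that remained among cytoplasmic ribosomal proteins was RpS5b, a paralogue of RpS5a with a role in the ovary. RpS5b lay at 10.47, 10.39, 10.93 and 10.65 in SceI48A embryos, against 11.42, 11.41, 11.72 and 11.42 in wild type, a gap of at least 0.48 between the groups. Its log2 fold change was -0.88 (standard error 0.12, adjusted p = 0.0011 from limma) and -0.74 after the correction (adjusted p = 0.0026), whereas RpS5a differed by -0.11 (adjusted p = 0.451). The source of the gradient was not tested.

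The 12 genes of PRC1 itself split into a pair that rose (16.7%, against 3.10% of all genes) and the rest that did not pass. Psc, a RING finger subunit that partners with Sce, lay at 10.86, 10.99, 10.65 and 10.88 in SceI48A embryos, against values between 9.99 and 10.23 in the 4 wild-type embryos. Its paralogue Su(z)2, which can take its place in the complex, lay at 11.47, 11.68, 11.45 and 11.45 in SceI48A embryos, against 10.21, 10.69, 10.72 and 10.60 in wild type. For both genes every mutant value was above every wild-type value, by 0.42 and 0.73 at the narrowest. Psc was 1.73-fold and Su(z)2 1.94-fold higher (adjusted p = 0.000326 and adjusted p = 0.000342 from limma), and both kept their calls whichever embryo was left out and after the length correction (0.64 and 0.81, adjusted p = 0.00089 and adjusted p = 0.00014). They are neighbours on chromosome arm 2R, Psc on the minus strand and Su(z)2 on the plus strand, so that they point away from each other. In Asx0 embryos, whose table was normalized apart, Psc had a log2 fold change of 0.27 and Su(z)2 0.05. Drl-2, a receptor kinase gene on the far side of Su(z)2 that was picked after its values were seen, lay at 9.92, 10.31, 10.14 and 10.28 in SceI48A embryos, against 9.29, 9.35, 9.41 and 9.33 in wild type (log2 fold change 0.82, adjusted p = 0.000284 from limma). The other 10 genes of the PRC1 list, among them the chromodomain subunit gene Pc (-0.12), ph-p (0.03), ph-d (0.02), Scm (0.17), the DNA-binding protein gene pho (0.07) and Kdm2 (0.16), did not pass, with adjusted p values from 0.187 to 0.936.

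**Figure D3:**
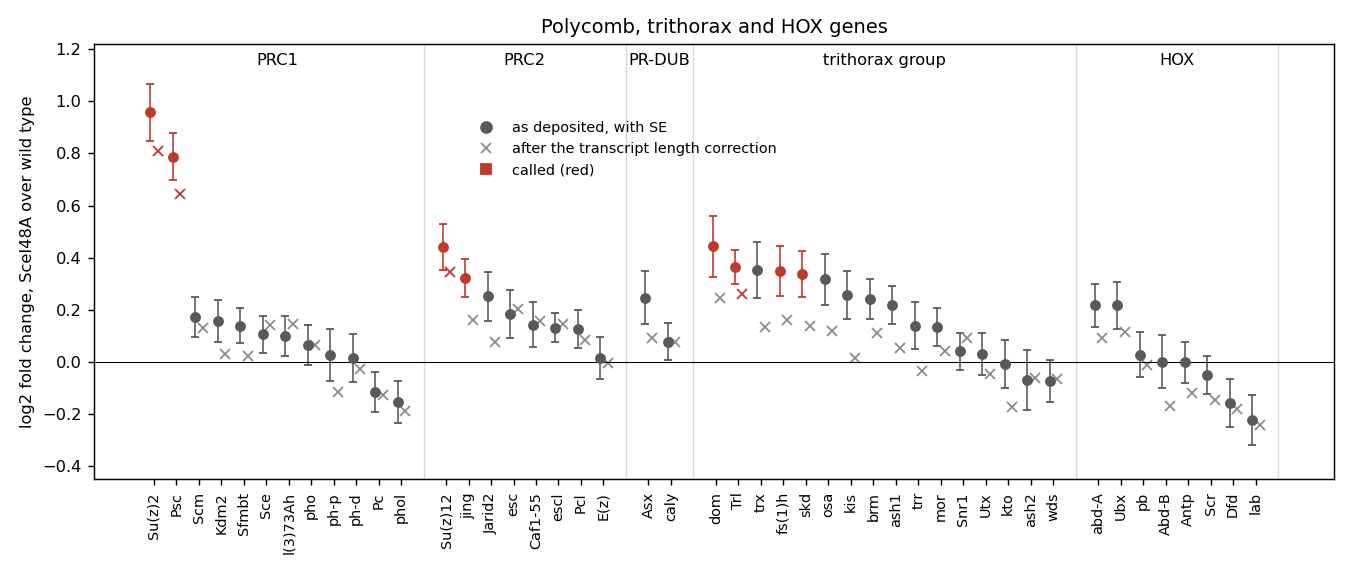
Points give the log2 fold change of SceI48A over wild type with its standard error (4 embryos a group) for the genes of PRC1, PRC2, PR-DUB, the trithorax group and the HOX clusters, crosses the value after the transcript length correction, and red marks genes called at an adjusted p under 0.05. Su(z)2 (0.96) and Psc (0.79) lie apart from the rest, and all 8 HOX genes lie between -0.22 and 0.22.

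PRC2, which methylates histone H3 at lysine 27, was represented by 8 genes, all with a positive log2 fold change. Of these 2 rose (25.0%, against 3.10% of all genes). Su(z)12, a core subunit, lay at 10.33, 10.37, 10.18 and 10.23 in SceI48A embryos, against 9.63, 9.87, 9.98 and 9.86 in wild type, and rose by 0.44 on the log2 scale (adjusted p = 0.0113 from limma; 0.35 and adjusted p = 0.0125 after the length correction). It kept the call whichever embryo was left out. The cofactor gene jing rose by 0.32 (adjusted p = 0.0197 from limma), but its call was lost without wild-type embryo 2 (adjusted p = 0.0613) and after the length correction (0.16, adjusted p = 0.112). The catalytic subunit gene E(z) had 0.01, esc 0.18, Pcl 0.13 and Jarid2, whose product binds ubiquitinated H2A, 0.25, none of them past the test. The PR-DUB genes did not pass either, with Asx at 0.25 (adjusted p = 0.154 from limma) and caly at 0.08 (adjusted p = 0.536 from limma).

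Of 16 trithorax group genes 4 rose (25.0%, against 3.10% of all genes) and none fell, and the longest transcript of the median member spans 7677 bases. The 4 were dom (0.44), Trl (0.36), fs(1)h (0.35) and skd (0.34). Trl, which encodes GAGA factor, lay at 12.34, 12.43, 12.43 and 12.38 in SceI48A embryos, against 11.99, 12.05, 12.10 and 11.99 in wild type. It kept the call whichever embryo was left out and after the length correction (0.26, adjusted p = 0.0282 from limma), and the other 3 did neither. The median of the list was 0.23, against 0.00 over all tested genes, and fell to 0.07 after the correction. The genes trx (0.35, adjusted p = 0.0665 from limma), osa (0.32) and kis (0.26), did not pass.

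The HOX genes, the classical targets of Polycomb repression, gave no call. Ubx lay at 11.12, 11.10, 11.08 and 11.22 in SceI48A embryos, against 10.66, 11.01, 11.01 and 10.99 in wild type. All 4 mutant values were higher, but wild-type embryos 2, 3 and 4 lay close below them and only wild-type embryo 1 was far below. With wild-type embryo 1 counted, the log2 fold change was 0.22 (standard error 0.09, adjusted p = 0.157 from limma), and 0.12 after the length correction. For abd-A it was 0.22 (adjusted p = 0.124), for lab -0.22 (adjusted p = 0.179), for Dfd -0.16 (adjusted p = 0.312), and for Antp, Abd-B, Scr and pb between -0.05 and 0.03. Over the 8 genes the mean level was 9.95 to 10.10 in SceI48A embryos and 9.98 to 10.09 in wild type.

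Beyond the HOX genes, 106 developmental regulators known as Polycomb targets were tested, of which 4 rose (3.77%, near the 3.10% of all genes) and none fell. Their median was 0.06 and 73 of the 106 were above 0. The Pax6 gene toy lay at 10.52, 10.50, 10.39 and 10.55 in SceI48A embryos, against 9.52, 9.75, 10.18 and 10.16 in wild type, with wild-type embryos 1 and 2 well below the other two. Its log2 fold change was 0.59 (adjusted p = 0.0215 from limma), and the second Pax6 gene ey had -0.12 (adjusted p = 0.351). SoxN, a transcription factor of the nervous system, rose by 0.32, the head gap gene oc by 0.36 and sob by 0.28. All 4 lost the call when single embryos were left out, at adjusted p up to 0.0681 for toy without wild-type embryo 2, 0.0773 for SoxN and 0.105 for oc without SceI48A embryo 2, and 0.0766 for sob without wild-type embryo 3. After the length correction 3 targets were higher and 2 lower. The abundant targets hth (0.21) and vvl (0.11) did not pass.

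The gene that rose most was Cyp4p2, a cytochrome P450 gene on chromosome arm 2R. It lay at 10.25, 10.03, 10.13 and 9.68 in SceI48A embryos, against 6.45, 6.87, 6.95 and 6.98 in wild type, a 9.24-fold difference (log2 fold change 3.21, standard error 0.14, adjusted p = 2.88e-07 from limma). Its neighbour Cyp4p1 rose by 0.99 (adjusted p = 8.37e-05), while Cyp4p3, the next gene on the same strand, fell by 0.24 (adjusted p = 0.0145). The 3 genes lie in a row between 9237512 and 9244410 of 2R in the dm6 assembly and are paralogues. Cyp4p2 was also higher in Asx0 embryos, by 0.78, where Cyp4p1 had -0.09.

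**Figure D4:**
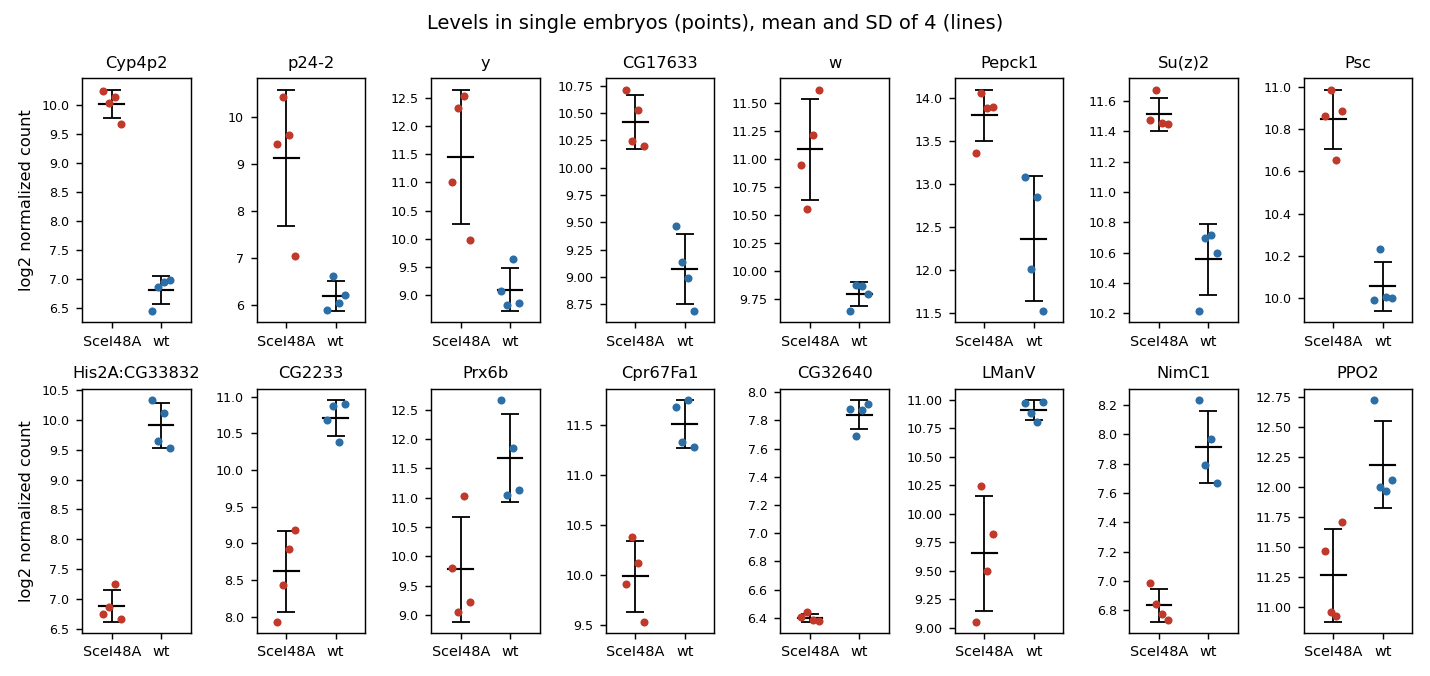
Points are the log2 normalized counts of single embryos, 4 SceI48A (red) and 4 wild type (blue), with the mean and SD of each group as lines, for 8 genes that rose (top) and 8 that fell (bottom); each panel has its own axis. In every panel the 2 groups are apart, narrowly for y, p24-2, Pepck1, Prx6b and PPO2, whose mutant or wild-type embryos spread widely.

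Several of the largest rises varied strongly between the mutant embryos. p24-2, a cargo receptor gene of the secretory pathway, lay at 9.42, 10.43, 9.63 and 7.04 in SceI48A embryos, against 5.88, 6.61, 6.03 and 6.20 in wild type. Unc-115b, annotated within the same interval of chromosome arm 3R so that reads could be shared, followed it with 8.33, 9.78, 9.09 and 5.96 in SceI48A embryos, against 5.80, 6.05, 6.40 and 6.07 in wild type. SceI48A embryo 4 was thus low for both, at the wild-type level for Unc-115b. The log2 fold changes were 2.95 (adjusted p = 0.00676 from limma) and 2.21 (adjusted p = 0.045 from limma), and with robust variances neither gene passed (adjusted p = 0.0651 and adjusted p = 0.165). eca, a close relative next to p24-2 on the chromosome, had -0.09, and Unc-115a, the paralogue of Unc-115b, had 0.22, neither past the test. The pigment gene y lay at 11.004, 12.32, 12.54 and 9.98 in SceI48A embryos, against 9.07, 8.81, 9.64 and 8.84 in wild type, again with embryo 4 lowest (2.37, adjusted p = 0.00907 from limma; adjusted p = 0.0718 with robust variances). The eye colour transporter gene w had another order, with 10.95, 10.56, 11.22 and 11.62 in SceI48A embryos, against 9.65, 9.88, 9.87 and 9.80 in wild type (1.29, adjusted p = 0.00115 from limma). Both y and w are in use as markers on inserted elements, and copies carried by the stock would be counted with the native gene, a part in the result that was not tested. Of the stock markers on the third chromosome, cu had 0.35 (adjusted p = 0.147 from limma) and sr 0.22 (adjusted p = 0.201 from limma).

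Other strong rises were tighter. CG17633 lay at 10.72, 10.24, 10.53 and 10.20 in SceI48A embryos, against 9.46, 9.14, 8.99 and 8.69 in wild type (1.35, adjusted p = 0.000359 from limma). The zinc transporter gene ZnT35C rose by 1.03 (adjusted p = 0.000284 from limma), CG12560 by 1.02 (adjusted p = 3.07e-05), CG5402 by 0.98 (adjusted p = 0.00021) and the trehalose transporter gene Tret1-1 by 0.97 (adjusted p = 0.00451), each with the call kept whichever embryo was left out. Pepck1, which encodes the enzyme that commits carbon to gluconeogenesis, lay at 13.36, 14.05, 13.88 and 13.90 in SceI48A embryos, against 13.08, 12.01, 12.84 and 11.52 in wild type. It was the wild-type embryos that spread here, over 1.56 on the log2 scale, and the call (1.44, adjusted p = 0.0113 from limma) was lost with robust variances (adjusted p = 0.0678). Its paralogue Pepck2 next to it had 0.14 (adjusted p = 0.346). Arc1, a capsid-like gene of the nervous system, lay at 13.39, 12.52, 12.19 and 11.81 in SceI48A embryos, against 11.58, 11.26, 11.32 and 11.22 in wild type (1.13, adjusted p = 0.0205 from limma), lost its call with robust variances (adjusted p = 0.0835) and without wild-type embryo 2 (adjusted p = 0.0597), and its neighbour Arc2 had 0.05. Side by side, CG17633, Pepck1 and w were lower in Asx0 embryos (-1.13, -1.01 and -1.39), whereas ZnT35C and CG12560 were higher there (0.83 and 0.89).

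The deepest falls were in the replicated histone genes, whose many near-identical copies make the level of any 1 copy uncertain and whose usual transcripts lack a poly(A) tail. Of 10 copies tested, 2 fell and none rose. His2A:CG33832 lay at 6.75, 6.86, 7.25 and 6.65 in SceI48A embryos, against 10.33, 9.65, 10.12 and 9.53 in wild type, an 8.17-fold difference (-3.03, adjusted p = 2.23e-06 from limma). His2B:CG33870 lay at 6.66, 6.91, 6.58 and 7.05 in SceI48A embryos, against 10.52, 9.13, 10.44 and 9.18 in wild type (-3.02, adjusted p = 0.000145 from limma). A second H2B copy, His2B:CG33872, mirrored it within the wild type, at 5.49, 7.68, 5.54 and 7.71, so that wild-type embryos 1 and 3 were high for the one and 2 and 4 for the other. In SceI48A embryos that copy lay at 5.58, 5.75, 5.56 and 5.96, and it did not pass the test (-0.89, adjusted p = 0.249). The other 7 histone copies had log2 fold changes between -0.30 and 0.16.

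Outside the histone genes CG2233 fell most among the called genes. It lay at 7.93, 8.43, 8.92 and 9.18 in SceI48A embryos, against 10.69, 10.87, 10.38 and 10.91 in wild type, a 4.28-fold difference (-2.096, standard error 0.22, adjusted p = 0.000231 from limma). CG32640 was even within both groups, with 6.40, 6.44, 6.38 and 6.38 in SceI48A embryos, against 7.88, 7.69, 7.88 and 7.92 in wild type (-1.44, adjusted p = 3.6e-07 from limma). Values with few reads are drawn towards the gene's mean, so this evenness and the size of the change need not hold for the counts. CG9757 (-1.57), CG7299 (-1.54), CG14960 (-1.43), CG16898 (-1.34), CG43799 (-1.32) and CG42822 (-1.24) fell with adjusted p values from 1.06e-06 to 0.000342, and all of these kept the call whichever embryo was left out. In Asx0 embryos CG2233 and CG16898 had log2 fold changes of -2.31 and -1.14, and CG43799, CG42822 and Cpr67Fa1 had -0.13, -0.11 and 0.09. The peroxiredoxin genes Prx6b and Prx6c, neighbours on 2R whose products break down peroxides, were less even. Prx6b lay at 9.79, 9.06, 11.03 and 9.23 in SceI48A embryos, against 12.66, 11.05, 11.85 and 11.13 in wild type, so that SceI48A embryo 3 came within 0.02 of wild-type embryo 2. The calls of Prx6b (-1.89, adjusted p = 0.0192 from limma) and Prx6c (-1.32, adjusted p = 0.0354) were lost with robust variances (adjusted p = 0.103 and adjusted p = 0.134) and without SceI48A embryo 2 (adjusted p = 0.0548 and adjusted p = 0.0915). In Asx0 embryos their log2 fold changes had the opposite sign, 1.196 for Prx6b and 2.24 for Prx6c. Of the 15 genes of the oxidative defence list 4 fell (26.7%, against 4.39% of all genes) and none rose, Prx2 (-0.48) and Prx4 (-0.39) being the others. None of the 4 kept the call whichever embryo was left out.

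Digestive enzyme genes of the midgut were lower as a group. Of 35 tested, 12 fell (34.3%, against 4.39% of all genes) and 1 rose (2.86%, near the 3.10% of all genes). Of the 35, 32 had a log2 fold change below 0, and the median was -0.14. The mean level over the group was 6.62, 6.76, 6.80 and 6.73 in SceI48A embryos, against 7.04, 6.97, 6.95 and 6.99 in wild type, without overlap. Means of other lists did not overlap either, even where no member was called. For histone variants they ran from 9.585 to 9.677 in SceI48A embryos, against 9.704 to 9.743 in wild type. LManV, a lysosomal type alpha-mannosidase, lay at 9.05, 10.25, 9.50 and 9.82 in SceI48A embryos, against 10.97, 10.88, 10.80 and 10.98 in wild type (-1.26, adjusted p = 0.00266 from limma). The maltase genes Mal-A5 (-0.73) and Mal-A2 (-0.66), the lipase gene Lip4 (-0.66) and the sterol-binding protein gene Npc2g (-0.62) fell too. The serine protease gene Jon65Aiii lay at 7.81, 8.29, 9.45 and 8.91 in SceI48A embryos, against 9.74, 9.62, 9.76 and 9.71 in wild type, so that the wild-type embryos were alike and the mutants spread over 1.64. Its call (-1.09, adjusted p = 0.0281 from limma) was lost with robust variances (adjusted p = 0.0999). The trypsin gene lambdaTry (-0.32) did not pass, and the member that rose was Jon25Biii (0.53, adjusted p = 0.046 from limma). After the length correction 11 were called lower, and 8 kept the call whichever embryo was left out. In bulk samples fewer cells of a type and less RNA per cell cannot be told apart, which holds for each tissue group named here.

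**Figure D5:**
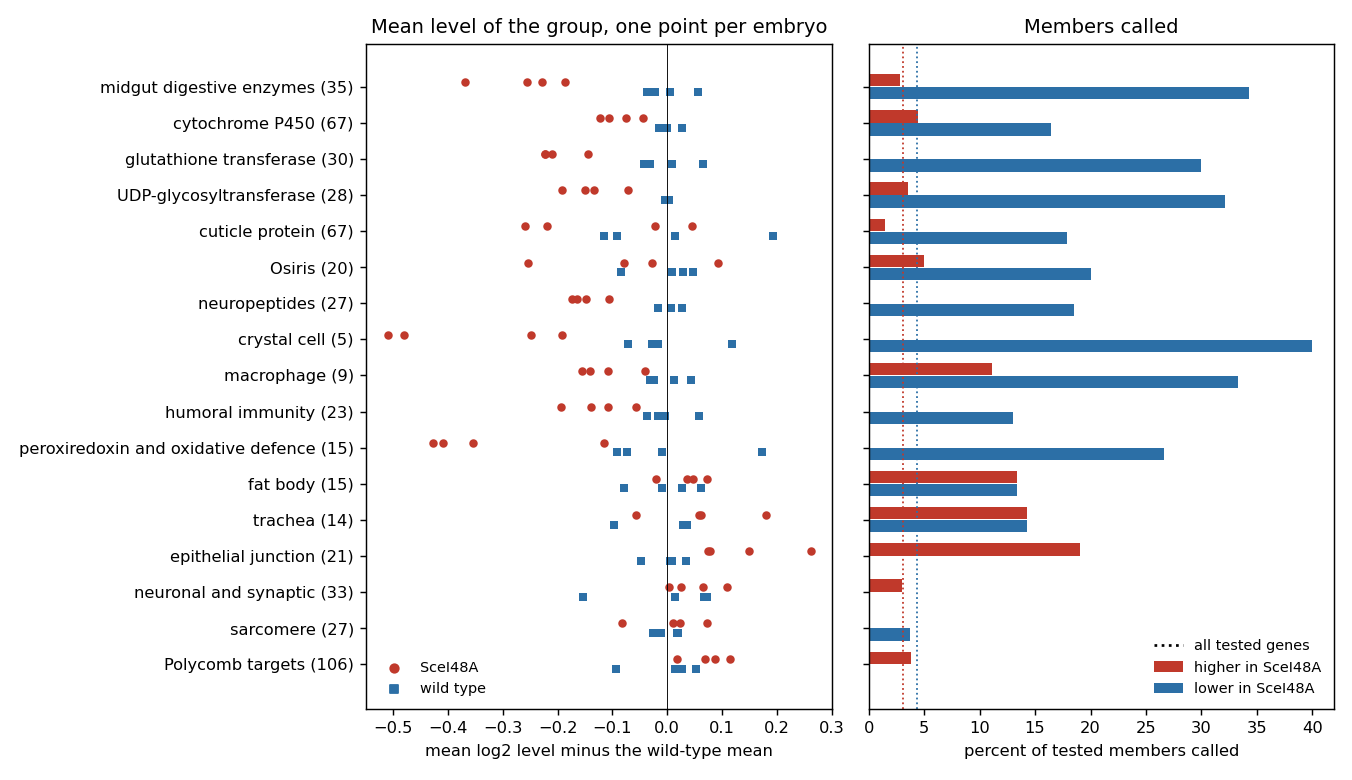
Left, the mean log2 level of each gene group in each embryo minus the mean of the 4 wild-type embryos, SceI48A as red circles and wild type as blue squares; right, the percent of the tested members (number in brackets) called higher (red) or lower (blue), with dotted lines at 3.10% and 4.39% for all tested genes. Midgut enzymes, cytochrome P450s, glutathione transferases, UDP-glycosyltransferases and neuropeptides lie below every wild-type embryo in all 4 SceI48A embryos. So do the crystal cell, macrophage, humoral immunity and oxidative defence groups, and the epithelial junction group lies above. The macrophage groups nearly meet (mean level 10.768 in SceI48A embryo 4, against 10.778 in wild-type embryo 1). The median change of a member was 0.14 for the macrophage list and -0.01 for the crystal cell list. The cuticle, Osiris, tracheal, fat body, neuronal, muscle and Polycomb target groups overlap.

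Detoxification genes showed the same tendency in 3 families, with exceptions at the top. Of 30 glutathione transferase genes 9 fell (30.0%, against 4.39% of all genes) and none rose, with a median of -0.19, and 7 were called lower after the length correction and 7 kept the call whichever embryo was left out. Their mean level was 8.16 to 8.24 in SceI48A embryos and 8.34 to 8.45 in wild type. GstE3 lay at 8.20, 8.34, 8.34 and 7.99 in SceI48A embryos, against 8.76, 9.10, 8.96 and 9.05 in wild type (-0.75, adjusted p = 0.00114 from limma), and GstD10 fell by 0.74 and GstE12 by 0.52. Of 28 UDP-glycosyltransferase genes 9 fell (32.1%, against 4.39%) and 1 rose (3.57%, near the 3.10% of all genes). Ugt35D1 lay at 9.64, 10.11, 9.53 and 9.59 in SceI48A embryos, against 10.59, 10.83, 10.67 and 10.68 in wild type (-0.97, adjusted p = 0.000503 from limma), and the one that rose, Ugt49B1 (0.46), lost its call without wild-type embryo 2 (adjusted p = 0.0814). Of 67 cytochrome P450 genes 11 fell (16.4%, against 4.39%) and 3 rose (4.48%, near the 3.10% of all genes). Cyp6a16 fell by 1.07 (adjusted p = 3.12e-05 from limma), Cyp12c1 by 0.87 (adjusted p = 3.12e-05) and Cyp4e2 by 0.64 (adjusted p = 0.00134), while 51 of the 67 had a log2 fold change below 0. The genes that rose were Cyp4p2, Cyp4p1 and Cyp28d2 (0.35).

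A further family came to notice through 2 rows of neighbouring genes and was counted after the values had been seen. RefSeq gives 51 fly genes a synonym of the Dro series, used for ecdysteroid kinase-like genes, whose products are thought to phosphorylate steroid hormones or toxins. Of 37 tested, 13 were called, 6 higher and 7 lower, with a median of 0.01. The 6 called genes of the rows, which led to the family being counted, are among them, and without these 7 of 31 were called (22.6%, against 7.48% of all genes), 3 higher and 4 lower. On chromosome arm 3R the adjacent genes CG6834 (0.54), CG6908 (0.26) and CG18765 (0.53) rose, and elsewhere on the arm the adjacent genes CG10514 (-0.57), CG11892 (-0.08) and CG31300 (-0.48) fell. CG16898 on 2R fell most (-1.34). CG18765, CG10514, CG31300 and CG16898 kept the call whichever embryo was left out, and CG11892, at the lower limit of the counts, lost it with each.

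Cuticle genes moved unevenly. Of 67 cuticle protein genes 12 fell (17.9%, against 4.39% of all genes) and 1 rose (1.49%, against 3.10%), and after the length correction 10 were called lower and 4 higher, with a median of -0.0009. Over the 67, the mean levels of the embryos overlapped, at 8.40, 8.60, 8.67 and 8.36 in SceI48A embryos against 8.82, 8.53, 8.64 and 8.51 in wild type. Cpr67Fa1 lay at 9.91, 10.38, 10.12 and 9.53 in SceI48A embryos, against 11.68, 11.33, 11.75 and 11.28 in wild type (-1.53, adjusted p = 0.00025 from limma). Lcp65Ae (-0.78), Cpr66D (-0.58) and Cpr56F (-0.55) fell with it, and Cpr49Ae, with 10.27, 10.04, 10.42 and 10.15 in SceI48A embryos against 9.79, 9.61, 9.31 and 9.42 in wild type, rose by 0.69 (adjusted p = 0.004 from limma). Of 23 Tweedle genes, a family of chitin-binding cuticle proteins, 2 fell (8.70%, against 4.39% of all genes) and none rose, and TwdlM (0.10) did not pass. Neither call held whichever embryo was left out, and after the length correction 2 were called higher and 1 lower. Of 20 Osiris genes, transmembrane proteins of cuticle-forming cells, 4 fell and 1 rose, and after the length correction 2 were called lower and 1 higher. The adjacent genes Osi18 (-0.42), Osi19 (-0.47) and Osi20 (-0.33) kept the call whichever embryo was left out. Osi20 lay at 15.24, 15.15, 15.10 and 15.16 in SceI48A embryos, against 15.51, 15.47, 15.52 and 15.47 in wild type. After the length correction Osi20 still passed (-0.23, adjusted p = 0.0454 from limma) and Osi18 and Osi19 did not (adjusted p = 0.055 and adjusted p = 0.0721). The apical matrix gene pio, which shapes tracheal tubes, rose by 0.57 (adjusted p = 0.0013 from limma).

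Blood cell genes fell in part. The phenoloxidase genes PPO1 and PPO2, which crystal cells use for melanization, were the called members of a list of 5 (40.0% lower, against 4.39% of all genes). PPO2 lay at 11.47, 10.96, 10.92 and 11.71 in SceI48A embryos, against 12.73, 12.002, 11.96 and 12.06 in wild type (-0.93, adjusted p = 0.0167 from limma). PPO1 lay at 11.43, 10.67, 10.79 and 11.67 in SceI48A embryos, against 12.35, 12.05, 11.69 and 12.03 in wild type (-0.89, adjusted p = 0.0247), so that SceI48A embryos 2 and 3 were low for both. PPO1 lost the call with robust variances (adjusted p = 0.0702) and without wild-type embryo 1 (adjusted p = 0.0721). The lineage factor lz (0.03) did not pass. Of 9 macrophage genes 3 fell (33.3%, against 4.39% of all genes) and 1 rose (11.1%, against 3.10%). The other members leaned upward, so that 6 of the 9 were above 0 and the median was 0.14. The phagocytosis receptor gene NimC1 lay at 6.99, 6.84, 6.77 and 6.73 in SceI48A embryos, against 8.23, 7.79, 7.97 and 7.67 in wild type (-1.08, adjusted p = 0.00021 from limma), and kept the call whichever embryo was left out. Sr-CI (-0.60) and Pxn (-0.46) fell, and NimC4 rose by 0.43, calls that were each lost with some embryo left out (adjusted p up to 0.124, for Pxn without wild-type embryo 3). Of 23 genes of humoral immunity 3 fell and none rose. Among the 3 was BomBc2, a short secreted peptide of the Toll response (-0.94, adjusted p = 0.00202 from limma). BomBc2 lay at 6.94, 7.03, 7.11 and 7.498 in SceI48A embryos, against 8.42, 8.13, 7.91 and 7.87 in wild type. Only BomBc2 kept the call whichever embryo was left out. After the length correction 2 genes of this list were called lower.

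Neuropeptide genes fell in part. Of 27 neuropeptide genes 5 fell (18.5%, against 4.39% of all genes) and none rose, 22 had a log2 fold change below 0, and their mean level was 6.46, 6.48, 6.52 and 6.45 in SceI48A embryos, against 6.65, 6.61, 6.63 and 6.61 in wild type. CCHa2, made mainly by fat body and gut, lay at 7.08, 7.31, 7.46 and 7.60 in SceI48A embryos, against 8.44, 8.33, 8.23 and 7.83 in wild type (-0.85, adjusted p = 0.00367 from limma). Nplp1 lay at 8.65, 8.34, 8.72 and 8.38 in SceI48A embryos, against 9.19, 9.26, 9.48 and 9.20 in wild type (-0.76, adjusted p = 0.00121). Both kept the call whichever embryo was left out. Mip (-0.40), AstC (-0.25) and Pdf (-0.19) fell less. Each call was lost without wild-type embryo 3 (adjusted p = 0.0587, adjusted p = 0.0989 and adjusted p = 0.106 from limma), and of the 8 fits that left out 1 embryo 6 kept the call of Mip, 1 that of AstC and 2 that of Pdf. AstC and Pdf also lost it after the length correction (adjusted p = 0.11 and adjusted p = 0.0595). The list had 3 members called lower after that correction. Of 33 neuronal and synaptic genes only the potassium channel gene Shab passed, and it rose (0.55, adjusted p = 0.0125 from limma). This was 3.03% of the list, near the 3.10% of all genes, with elav (0.29), brp (0.22), Syt1 (0.09) and nSyb (-0.08) not past the test. The median transcript of this list spans 7596 bases, and its median was 0.03, against -0.09 for neuropeptides. After the length correction it was -0.09 with 2 genes called lower and 1 higher, against -0.07 for neuropeptides. Among 14 glial genes Gs2 (-0.63), a glutamine synthetase, and the astrocyte gene alrm (-0.44) fell (14.3%, against 4.39% of all genes). Gli (0.35) rose (7.14%, against 3.10%), and the glial master gene repo (0.09) did not pass.

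Other tissues were mixed. Of 15 fat body genes 2 rose (13.3%, against 3.10% of all genes), the lipid droplet coat genes Lsd-2 (0.44, adjusted p = 0.00592 from limma) and Lsd-1 (0.39, adjusted p = 0.00642 from limma). The 2 that fell (13.3%, against 4.39%) were Adh (-0.72) and Adhr (-0.44), which share 1 transcription unit so that reads could be split between them. Adh lay at 12.01, 11.17, 11.65 and 11.98 in SceI48A embryos, against 12.22, 12.34, 12.68 and 12.46 in wild type (adjusted p = 0.0238 from limma), and lost the call without wild-type embryo 3 (adjusted p = 0.0676). The fat body apolipoprotein gene apolpp had 0.15 and did not pass. Of 27 sarcomere genes 1 fell (3.70%, near the 4.39% of all genes) and none rose, with Mhc at 0.15. The salivary gland sulfotransferase gene pip rose by 0.50 (adjusted p = 0.00144 from limma). Of 21 epithelial junction genes 4 rose (19.0%, against 3.10% of all genes) and none fell, the polarity genes l(2)gl (0.52, adjusted p = 0.004 from limma), crb (0.52) and baz (0.29) and the septate junction gene cold (0.31). The first of these kept the call whichever embryo was left out, and of the 4 crb and baz did not pass the length correction. The ecdysone-inducible gene ImpE2 lay at 11.99, 10.78, 10.48 and 11.36 in SceI48A embryos, against 12.06, 12.43, 12.49 and 12.26 in wild type (-1.16, adjusted p = 0.0186 from limma), and lost its call with robust variances (adjusted p = 0.0792). Lists for the germ line, sex determination and dosage compensation, histone variants, PR-DUB and the HOX genes held no call in either direction.

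By chromosome arm, leaving out Y with 1 tested gene that was not called, the share of called genes ran from 5.67% on X to 8.86% on the fourth chromosome, where 5 of 79 genes rose and 2 fell and the median was 0.10, with toy and the pigmentation gene yellow-h (-0.51) among the 7. The other arms had medians between -0.0045 and 0.011. Of runs of at least 3 neighbouring tested genes called in the same direction there were 9, 1 higher and 8 lower, with 30 genes in all. The longest was a row of 5 on 3R, from CG6726 (-0.997) over CG17110, CG17109 and CG6733 to CG6738 (-0.71), between 23091724 and 23100983 in the dm6 assembly. CG6726 lay at 8.93, 9.21, 9.11 and 8.90 in SceI48A embryos, against 10.11, 10.07, 9.75 and 10.20 in wild type (adjusted p = 0.00025 from limma). CG6726 and CG17110 overlap, so that their reads could be split, and CG17109 (-1.25), whose groups overlapped, lost its call with robust variances (adjusted p = 0.0811). The groups overlapped for CG6733 too (-0.62, adjusted p = 0.0485 from limma), and its call was lost with robust variances (adjusted p = 0.0721), after the length correction (adjusted p = 0.0721) and in 7 of the 8 fits that left out 1 embryo (highest adjusted p = 0.114, without wild-type embryo 4). Other runs that fell held GstE10 and GstE1 next to the chitinase-like gene Idgf5, Lcp1 and Lcp2 next to Cyp4ad1 and Cyp4e2, and the serine protease homologue gene sphe (-0.51) next to CG9673 (-0.71) and CG4653 (-0.59) on X.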

How the data were processed

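Poly(A) RNA of single embryos was sequenced by the authors, quantified with Salmon on annotated Drosophila transcripts, summed to genes with tximeta and normalized with DESeq2, each comparison by itself. The deposited log2 values are log2 normalized read counts of each embryo, and the authors' mean normalized count per gene, a signal averaged over the embryos of one table, served for filtering. Their columns of log2 fold changes of wild type over mutant, standard errors, test scores and p-values were not used. Embryos were grouped by the labels. Genes with a mean count of at least 10 were tested with limma 3.58.1 in R 4.3.3 (2 groups, variance trend, no covariates, two-sided, Benjamini-Hochberg over all tested genes, adjusted p under 0.05), a script tested on simulated data. Fold changes are SceI48A over wild type on the log2 scale, without a pseudocount. They are differences of shrunken values and can be smaller than folds of the counts. Without counts, no count model was fitted, and the depth of each embryo is unknown, which limits what low genes can show. Transcript lengths, positions and names came from annotation release 6.54 (dm6). Copies, paralogues and overlapping genes can share reads.

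The genes named were the Polycomb, trithorax and HOX lists, the 12 largest non-overlapping changes in each direction, the 6 largest among genes with a mean count of at least 1000, up to 4 called and 2 abundant uncalled members of each other list, members of runs, stock and sex markers and the 5 most variable genes. A further 19 names (such as RpS5a, Cyp4p3, Drl-2 and elav) were added as relatives, neighbours or markers with their values in view. The midgut marker Jon25Biii is named besides and is left out of the counts of named genes. Members and lists were chosen with earlier results of these data known. Alternatives covered the filter, a pseudocount of 5, the variance model, weights, normalization, covariates for sex and cuticle, the replicate number as a block and leaving out each embryo.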

Additional observations from a re-analysis of the deposited data

Results flagged for a closer look

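In 27 of 234 groups of 4 embryos with a range of at least 0.2 on the log2 scale, among the 164 named genes, 1 embryo lay so far from the nearest of the others that the gap passed Dixon's 95% limit for the group's range. The other 94 groups had smaller ranges and were not considered. Chance flags about 1 in 20 groups. Most of these values came from the embryos numbered 1, which also lay farthest out on the first principal component.

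Wild-type embryo 1 was the low value for several Polycomb, trithorax and HOX genes. It lay at 10.66 for Ubx (nearest wild-type embryo 10.99), 11.58 for abd-A (11.79), 10.31 for Abd-B (10.61) and 9.88 for Scr (10.08). It lay at 10.43 for Asx (10.77), 11.25 for Jarid2 (11.53), 10.55 for Kdm2 (10.77) and 6.89 for esc (7.24). The same embryo lay at 12.37 for dom (12.71), 11.94 for osa (12.33), 10.90 for crb (11.30) and 12.12 for elav (12.59). It was the high value for Prx6c at 12.24 (11.13), PPO2 at 12.73 (12.06), Cpr56F at 13.55 (13.16) and Prx4 at 10.19 (9.85).

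SceI48A embryo 1 was high for crb at 12.06 (nearest SceI48A embryo 11.65), cold at 10.68 (10.45) and CG43799 at 8.20 (7.95), and low for Prx2 at 9.89 (10.26), CG9673 at 8.22 (8.43) and Idgf5 at 8.03 (8.87). SceI48A embryo 2 was high for Su(z)2 at 11.68 (11.47). In wild type, embryo 2 was high for Psc at 10.23 (10.01), and embryo 3 was high for Pxn at 12.98 (12.72) and RpS5b at 11.72 (11.42) and low for msl-2 at 8.76 (9.73), the embryo with the lowest difference of msl-2 and Sxl.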

How the results depend on the processing

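Of the alternatives, these moved a count of calls by more than 1.5 times. With a weight per embryo 522 genes were higher (against 321). Beyond 2-fold, the number higher was 19 with the mean cuticle level of each embryo as a covariate, 17 with equal medians, 17 with a weight per embryo and 5 with robust variances, against 11. Without the 2-fold limit, the cuticle covariate gave fewer calls, 216 higher and 329 lower, against 321 and 455. Of these, 173 and 291 were also called in the main fit. Leaving out each embryo in turn gave 135 to 267 genes higher and 255 to 391 lower, and beyond 2-fold 7 to 15 higher and 26 to 34 lower. With equal medians 55.3% of the calls were higher, against 41.4%. The transcript length correction and the fit without both embryos numbered 1 (314 higher and 423 lower) were chosen after seeing the data. With the replicate number as a block, 152 genes were higher and 294 lower, against 321 and 455. Both counts thus also moved by more than 1.5 times (replicate block). Deviations of embryos with the same number correlated at -0.13, -0.03, -0.08 and 0.11 over the tested genes. The labels do not say whether embryos with the same number shared any handling. Of the 117 named genes that were called none changed sign under any alternative run, and of the 47 not called 15 did, among them Mhc, Abd-B and ph-p. Values are shrunken, most strongly where reads were few, and the depth is unknown. With single embryos of 1 stock a group, the p-values measure the spread between these embryos.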

Other observations

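Further gene groups held single calls. The odorant-binding protein gene Obp18a lay at 7.96, 8.69, 8.39 and 8.33 in SceI48A embryos, against 7.37, 7.61, 7.70 and 7.54 in wild type, and rose by 0.79 (adjusted p = 0.00467 from limma), while Obp56d fell by 0.21 and the other 16 genes of the list did not pass. Each call was 5.56% of the list, against 3.10% of all genes higher and 4.39% lower. Of 19 eye pigment and purine genes w rose (5.26%, against 3.10% of all genes) and cn, which encodes an enzyme of brown eye pigment synthesis, fell (5.26%, near the 4.39%). cn lay at 6.32, 6.45, 6.34 and 6.46 in SceI48A embryos, against 6.89, 6.86, 7.01 and 7.01 in wild type (-0.55, adjusted p = 0.000357 from limma). Of 24 heat shock and chaperone genes 1 rose (4.17%, near the 3.10% of all genes) and 1 fell (4.17%, near the 4.39%). The one that fell was the small heat shock protein gene Hsp27 (-0.38, adjusted p = 0.0167 from limma). Of 35 cell cycle and DNA replication genes 1 rose (2.86%, near the 3.10% of all genes) and none fell, with 28 above 0 and a median of 0.09.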
